A study of Mus musculus with 6 samples.

Results

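The 9 genes described here are Rpe65, Lrat, Rdh5, Rdh10, Rdh11, Rgr, Ttr, Best1 and Stra6, out of 23420 genes in the count table. They were chosen by name, as genes of the visual cycle and the retinal pigment epithelium (RPE). Retinal mRNA of albino mice was sequenced in 6 libraries, 2 biological replicates in each of 3 groups. Control mice had no light exposure and no minocycline. The light group was analysed 4 days after 1 h of bright white light, and the third group had the same light plus minocycline at 45 mg/kg by intraperitoneal injection. Light of this kind damages photoreceptors, and minocycline is a tetracycline antibiotic that dampens microglia, so the comparisons ask what light does to the retina and what minocycline does to that response.

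The sample labels and the study's methods describe the animals differently. The labels give strain CD1, light of 10000 lux and daily minocycline for 4 days. The methods give BALB/cJ mice of both sexes aged 10 to 14 weeks, dark-adapted for 16 h, light of 15000 lux, and minocycline for 5 days starting the day before light. No vehicle is named for the sequenced control or light libraries, and the number of animals behind a library is not given in the sources used here. Because both minocycline columns share a header, these libraries have no number and are named minocycline A and B.

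Vision in rods starts when light turns the 11-cis retinal bound to rhodopsin into the all-trans form, and the visual cycle is the set of enzymes that turns it back. Photoreceptor dehydrogenases reduce all-trans retinal to retinol, which crosses to the RPE, the pigmented sheet behind the photoreceptors. There LRAT joins it to a fatty acid, RPE65 converts the ester to 11-cis retinol, and RDH5, with RDH11 and RDH10, oxidises it to 11-cis retinal. RGR is an opsin of the RPE and Müller cells, STRA6 takes up retinol from its carrier in blood, TTR is the blood carrier's partner made by the RPE, and BEST1 is a chloride channel of the RPE's basal membrane. A dissected retina usually leaves most of the RPE behind, and how much adhered in these preparations is not stated in the sources used here.

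Total counts per library ran from 15205930 in control 1 to 22856922 in minocycline A, and 16594 to 17421 genes had at least 1 count. CPM is a gene's count scaled to a common library size after TMM adjustment. A gene without counts may reach 3 counts by chance, a limit of 0.131 to 0.213 CPM that covers counting error only. All 16 rod, 10 cone, 15 Müller cell and 20 inner retinal marker genes were detected in every library, so the labelled tissue was present. Control 1 held 77778 counts of Xist and 11 of 4 Y-linked genes, against 25 to 188 and 6532 to 12858 in the other libraries, so it stood apart in sex from its group partner. Since nothing says whether replicates came from separate animals or pools, p-values measure the spread between these libraries. Fewer cells of a type and less RNA per cell cannot be told apart in such bulk RNA.

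The promoter windows of Rpe65, Rgr and Lrat are shown as examples. The levels of these genes were correlated across libraries, as described further on. Stra6 and Rdh5 were correlated with Rpe65 more closely than Rgr was, and their windows are not printed. Windows came from the RefSeq table for GRCm38.p6 and span 250 bases before to 50 bases after a start, on the gene's own strand from 5′ to 3′. Of the 9 genes, 7 had 11 windows in the table, and Ttr and Rdh10 had none. Capitals mark the hexamers CACGTG and CATGTG, E-box forms bound by the MITF family of pigment cell factors, and TAATCC, the core bound by OTX2 and CRX, each searched on both strands. A hexamer on the opposite strand appears as its reverse complement. The Rpe65 window is chr3:159598931-159599230 on the plus strand, the Rgr window chr14:37048965-37049264 on the minus strand and the Lrat window chr3:82903925-82904224 on the minus strand.
Rpe65: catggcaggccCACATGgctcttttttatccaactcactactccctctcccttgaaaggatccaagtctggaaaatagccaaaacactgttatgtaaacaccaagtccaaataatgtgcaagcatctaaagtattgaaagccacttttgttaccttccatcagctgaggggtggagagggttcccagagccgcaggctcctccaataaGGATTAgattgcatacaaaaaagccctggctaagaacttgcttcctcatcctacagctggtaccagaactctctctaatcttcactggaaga
Rgr: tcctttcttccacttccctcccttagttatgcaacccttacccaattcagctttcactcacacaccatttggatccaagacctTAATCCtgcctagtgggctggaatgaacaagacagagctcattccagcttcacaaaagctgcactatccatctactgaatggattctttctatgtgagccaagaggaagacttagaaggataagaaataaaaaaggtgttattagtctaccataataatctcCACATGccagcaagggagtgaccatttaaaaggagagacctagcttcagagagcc
Lrat: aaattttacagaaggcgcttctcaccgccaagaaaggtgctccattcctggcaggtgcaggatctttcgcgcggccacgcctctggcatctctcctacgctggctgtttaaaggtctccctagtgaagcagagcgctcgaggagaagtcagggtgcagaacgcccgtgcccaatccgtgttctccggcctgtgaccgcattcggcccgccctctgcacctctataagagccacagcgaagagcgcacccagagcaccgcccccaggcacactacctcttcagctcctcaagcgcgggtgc

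The Rpe65 window held CATGTG at -239 and TAATCC at -42 from the start. The Rgr window held the same pair, TAATCC at -167 and CATGTG at -5. Best1 held TAATCC at -227, and the second of the Rdh11 windows held CACGTG at -230 and at -182. These letters were not in the windows of Lrat or Rdh5, in the 4 windows of Stra6 or in the first Rdh11 window. TATAAA was searched too and was in none of the 11 windows. Of 32851 windows in the table, CATGTG was in 14.15%, CACGTG in 7.15%, TAATCC in 7.062% and TATAAA in 13.62%, so single matches are common. A match is a description of the sequence and not a binding site.

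Levels between genes were compared per kb of exon, using lengths from the GRCm38 annotation. By the median over 6 libraries, Ttr was highest with 38.6 CPM per kb, followed by Rpe65 with 13.2, Rdh10 with 13.1, Rgr with 12.3 and Rdh11 with 9.73. Rdh5 (4.71), Lrat (2.48) and Stra6 (1.92) were lower, and Best1 was at 0. The ranges over libraries overlapped between all neighbours in this order except between Stra6 and Best1. Rpe65 ran from 9.68 to 35.2 CPM per kb while Rdh10 ran from 12.1 to 17.0. The RPE markers checked beside them also had counts in every library, with Rrh, an RPE opsin, at 15.8 to 29.0 CPM, Slc16a8, a lactate transporter, at 3.57 to 10.4 CPM and Kcnj13, a potassium channel, at 2.92 to 11.7 CPM. Not every RPE gene had counts: of a wider list of 50, 2 or 3 were at 0 in each library, and Mfrp and C1qtnf5 were at 0 in all 6. Overlap of these genes with other annotations was not checked, so a count of 0 need not mean that their RNA was absent.

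The retinoid isomerase Rpe65 (chr3:159599175-159625321) stood at 19.6 CPM in control 1 and 68.1 in control 2. It was at 21.3 and 29.8 in the light libraries, and at 18.7 and 31.9 in minocycline A and B. Control 2 was the highest library and control 1 lay among the others, so no pair of groups separated. The acyltransferase Lrat (chr3:82892579-82903973) was likewise highest in control 2, with 12.4 and 35.1 CPM in control, 12.5 and 17.0 in light and 10.6 and 14.1 with minocycline. Again a single control library was high and the groups overlapped. The Lrat annotation overlaps Rbm46os on the other strand, which was not analysed here.

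The 11-cis retinol dehydrogenase Rdh5 (chr10:128913593-128922888) had 11.8 and 29.7 CPM in control, 10.5 and 14.6 in light and 11.5 and 19.4 with minocycline. Its annotation overlaps Bloc1s1 on the same strand, at 34.7 to 49.3 CPM, so counting could have split reads between them and the Rdh5 level is uncertain. The opsin Rgr (chr14:37034909-37048964) had 57.7 and 128.1 CPM in control, 52.5 and 60.2 in light and 38.1 and 68.9 with minocycline. For both genes control 2 was highest and the groups overlapped.

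The retinol receptor Stra6 (chr9:58063788-58153996) had 8.18 and 17.8 CPM in control, 9.88 and 12.5 in light and 8.19 and 12.5 with minocycline. Its annotation overlaps Ccdc33 on the other strand, with 1 to 6 counts in a library, and Gm16131 on the same strand, which was not analysed here, so the Stra6 level is uncertain too. The retinol carrier partner Ttr on chromosome 18 had 36.9 and 88.3 CPM in control, 48.5 and 73.9 in light and 31.2 and 43.0 with minocycline. Ttr was the only gene of these 6 whose minocycline libraries both lay under both light libraries. Best1 (chr19:9985174-10001633) had 0 counts in 4 libraries and 1 count in each light library, under the limit that a count of 0 allows, so it was not tested.

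The other retinol dehydrogenases, which are used by many cell types besides the RPE, did not share this order. Rdh10 (chr1:16105774-16133734) oxidises all-trans retinol on the way to retinoic acid and is also found in Müller cells. It had 60.2 and 51.6 CPM in control, 57.6 and 70.7 in light and 50.3 and 50.7 with minocycline. Rdh11 (chr12:79174337-79192293), found in photoreceptors as well as the RPE, had 40.5 and 30.2 CPM in control, 21.9 and 21.3 in light and 37.7 and 37.0 with minocycline. Both light libraries of Rdh11 lay under the 4 others.

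**Figure D1:**
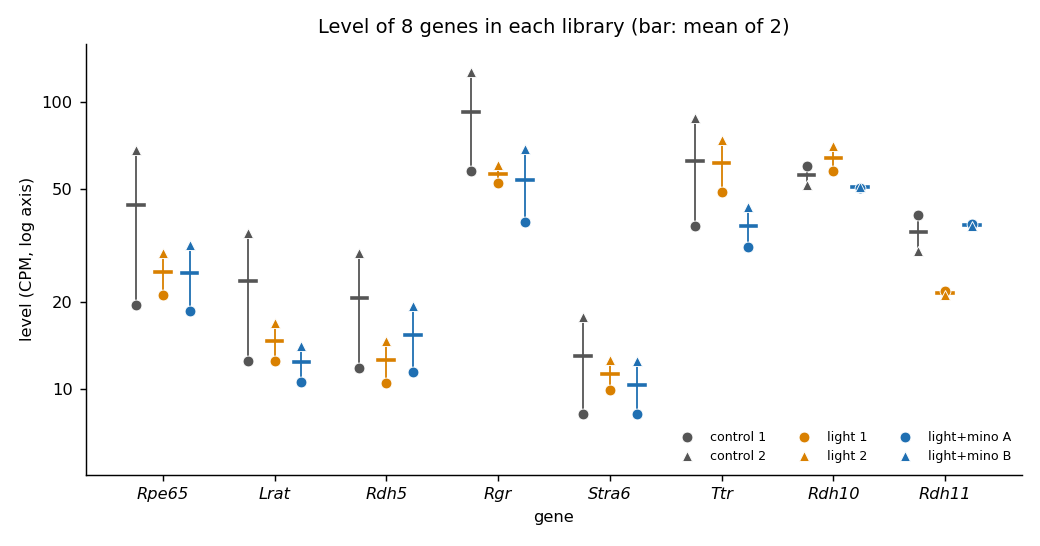
Level in CPM (log axis) of the 8 genes with counts in every library, by library; points are libraries, thick bars the mean of the 2 in a group, thin lines their range. Control 2 is the highest library for Rpe65, Lrat, Rdh5, Rgr, Stra6 and Ttr, while for Rdh11 the light libraries (21.9 and 21.3) lie under the rest.

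Light against control was tested with edgeR's quasi-likelihood test and Benjamini-Hochberg adjustment over 14349 genes. Rdh11 fell after light, from 35.3 ± 7.29 to 21.6 ± 0.404 CPM (SD, n = 2), a log2 fold change of -0.71 with SE 0.19, 95% interval -1.12 to -0.29 and adjusted p = 0.0371. It was the only member of 8 tested to pass at an adjusted p of 0.05, where 11.3% of all tested genes passed, and 0 members reached a log2 fold change of 2 in size. It was also the only one whose groups did not overlap, against 60.9% of all tested genes. Without 1 library the log2 fold change of Rdh11 was -0.49 (control 1), -0.91 (control 2), -0.73 (light 1) or -0.69 (light 2), and the adjusted p from the same edgeR quasi-likelihood test was 0.138, 0.0767, 0.0607 or 0.169. These fits have 1 library in a group and called 0, 37, 462 and 54 of all tested genes as lower, against 545 with all 4 libraries. Scaled to total library size, which moved the median of all genes to 0.24, it was 0.123 at a log2 fold change of -0.47.

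For the genes led by Rpe65, the values after light depended on which control library was kept. Rpe65 averaged 43.8 ± 34.3 CPM in control and 25.5 ± 6.06 in light (SD, n = 2), a log2 fold change of -0.77 with a 95% interval from -3.18 to 1.64 and adjusted p = 0.586 by edgeR's quasi-likelihood test. Lrat, Rdh5 and Rgr had log2 fold changes of -0.69, -0.72 and -0.72, with adjusted p of 0.478, 0.369 and 0.344 in the same edgeR fit. Without control 2 the log2 fold change was 0.38 for Rpe65, 0.24 for Lrat, 0.09 for Rdh5 and -0.04 for Rgr. Leaving out control 1 instead gave -1.42 for Rpe65, -1.26 for Lrat, -1.24 for Rdh5 and -1.19 for Rgr. Control 1 is the library that stood apart in sex, and the part of sex in these values was not tested. Stra6 and Ttr had values of -0.20 and -0.03 with all libraries, and 0.45 and 0.73 without control 2. They had -0.67 and -0.53 without control 1.

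For Rdh10 the log2 fold change after light was 0.20, with a 95% interval from -0.15 to 0.56 and adjusted p = 0.439 by edgeR's quasi-likelihood test. The median over the 8 genes was -0.70, beside 0.00 over all tested genes, and it was 0.16 without control 2 and -0.93 without control 1. Rod genes moved in the same libraries as Rdh11: the summed level of 16 rod markers was 119549 and 94543 CPM in control, 70290 and 50116 in light, and 100919 and 110103 with minocycline. All 16 were lower in both light libraries than in both controls, where 60.9% of all tested genes did not overlap, and 4 of them passed the test, where 11.3% of all tested genes passed, led by the rod transcription factor Nrl with a log2 fold change of -0.96. What part the rod RNA has in the Rdh11 value was not tested.

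Minocycline with light was compared with light alone over 14750 genes. Here 0 of the 8 members passed by edgeR's quasi-likelihood test, where 0.0542% of all tested genes passed. At an unadjusted p under 0.05 there were 2, Rdh11 higher and Ttr lower, against 21.1% of all tested genes. DESeq2 called 1, Rdh11, against 8.12% of all tested genes. The groups of 3 members did not overlap (Rdh11 higher, Rdh10 and Ttr lower), against 54.8% of all tested genes. The median over the 8 genes was -0.08, beside 0.01 over all tested genes, and it ran from -0.44 without minocycline B to 0.26 without minocycline A (0.04 without light 2 and -0.26 without light 1).

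Rdh11 averaged 37.4 ± 0.433 CPM with minocycline (SD, n = 2), a log2 fold change of 0.81 over light with SE 0.14, 95% interval 0.48 to 1.14 and adjusted p = 0.0698 by edgeR's quasi-likelihood test. This value missed the threshold in that fit and passed it with DESeq2 (adjusted p = 0.00228), without a filter on low counts in edgeR (0.0175) and with all 6 libraries in one edgeR fit (0.0447). The last 2 settings called 3.97% and 3.32% of all their tested genes. With each library left out in turn, the log2 fold change of Rdh11 was 0.77 to 0.82. Ttr was at 61.2 ± 17.9 CPM in light and 37.1 ± 8.36 with minocycline (SD, n = 2), a log2 fold change of -0.70 with a 95% interval from -1.31 to -0.10 and adjusted p = 0.187 by edgeR's quasi-likelihood test. The Ttr value was -0.99 without light 1, -0.39 without light 2, -0.47 without minocycline A and -0.96 without minocycline B. Rdh10 had -0.33 in the same edgeR fit with adjusted p = 0.250.

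Rpe65 was at 25.5 ± 6.06 CPM in light and 25.3 ± 9.29 with minocycline (SD, n = 2). Its log2 fold change was 0.0018 with a 95% interval from -0.72 to 0.73, so a change in either direction within that interval remained possible. Lrat, Rdh5, Rgr and Stra6 had log2 fold changes of -0.24, 0.31, -0.06 and -0.10, each with an interval that included 0.

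Minocycline with light was also compared with control over 14181 genes, which shares its libraries with the comparisons above. None of the 8 members passed (0 by edgeR's quasi-likelihood test, 0 at an unadjusted p under 0.05 and 0 by DESeq2), where 0.162% of all tested genes passed, 7.01% had an unadjusted p under 0.05 and DESeq2 called 1.18%. The groups of 1 member, Rdh10, did not overlap, against 39.9% of all tested genes. The median over the 8 genes was -0.55, beside 0.02 over all tested genes, and it was 0.04 without control 2, -0.25 without minocycline A, -0.93 without minocycline B and -1.06 without control 1.

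Lrat had the largest difference in size from control, a log2 fold change of -0.91 with a 95% interval from -2.18 to 0.37 and adjusted p = 0.742 by edgeR's quasi-likelihood test. Rpe65 had -0.75, Rgr -0.76, Ttr -0.71, Rdh5 -0.39 and Stra6 -0.29. Without control 2 these became 0.42 for Rpe65, -0.06 for Rgr, 0.06 for Ttr, 0.43 for Rdh5, 0.38 for Stra6 and 0.03 for Lrat. Without minocycline B, 3 genes passed as lower in edgeR's quasi-likelihood test, namely Lrat at -1.16 (adjusted p = 0.0381), Rgr at -1.28 (5.08e-04) and Ttr at -0.9996 (0.0332), where 0.292% of all tested genes passed as lower. That fit leaves only minocycline A, the lowest library for these 3 genes, and assumes that it varies like the controls. With all libraries, Rdh11 differed from control by 0.13, with an interval from -0.29 to 0.54, and Rdh10 by -0.10, from -0.46 to 0.25.

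**Figure D2:**
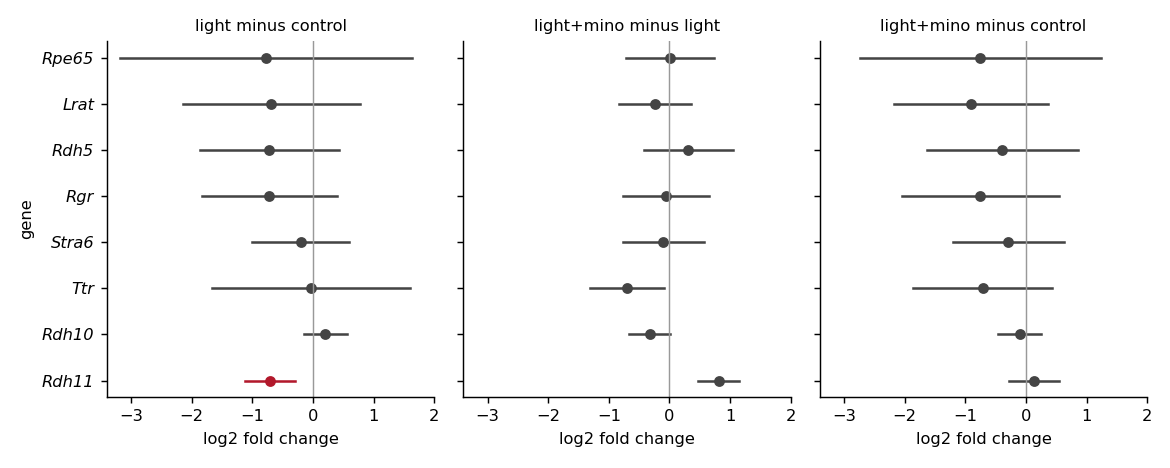
Log2 fold change (points) with its 95% interval (lines) for 8 genes in the 3 comparisons, by edgeR's quasi-likelihood test; red marks an adjusted p under 0.05. The Rpe65 interval after light runs from -3.18 to 1.64, and only Rdh11 in light minus control is red.

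Rpe65, Lrat, Rdh5, Rgr, Ttr and Stra6 were all above their own mean in control 2 and below it in control 1, light 1 and minocycline A, with mixed signs in light 2 and minocycline B. This set of 6 was chosen after the values were seen, so what follows is a description. Their median log2 distance from each gene's own mean was 1.00 in control 2, 0.11 in light 2, 0.15 in minocycline B, -0.29 in light 1, -0.39 in control 1 and -0.57 in minocycline A. Their summed level was 146.6 and 367 CPM in control, 155 and 208.1 in light, and 118.3 and 189.7 with minocycline.

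Over the 6 libraries, the 15 pairwise Pearson correlations of log2 CPM among these genes ran from 0.686 to 0.970 with a median of 0.914. The points share libraries and their normalization, and control 2 lies far from the rest, so no p is given. With Rpe65, r was 0.970 for Stra6 and for Lrat, 0.965 for Rdh5, 0.948 for Rgr and 0.836 for Ttr. Rdh10 and Rdh11 had r of -0.19 and -0.15 over the same 6 libraries.

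**Figure D3:**
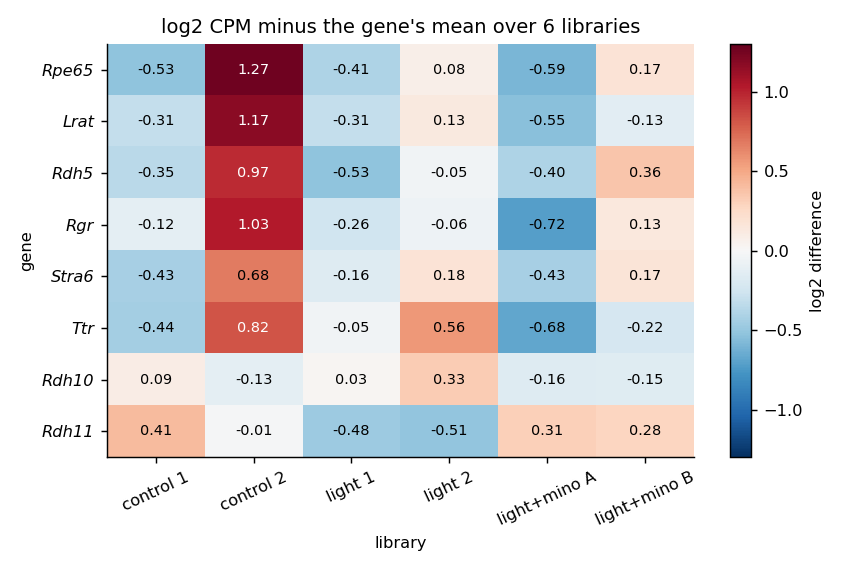
Log2 CPM minus the gene's mean over 6 libraries, for 8 genes (rows) and 6 libraries (columns); red is above and blue below the mean. The control 2 column is red for the top 6 genes, reaching 1.27 for Rpe65, and not for Rdh10 or Rdh11.

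The 6 genes differed more between the control libraries than within the other groups. Control 2 over control 1 was 3.48 for Rpe65, and 0.646% of 14713 genes were at least as far apart in either direction. The ratio was 2.82 for Lrat, 2.51 for Rdh5, 2.39 for Ttr, 2.22 for Rgr and 2.17 for Stra6, with 1.44% to 3.54% of genes as far apart, while it was 0.858 for Rdh10 and 0.745 for Rdh11. In the light group the 6 ratios of library 2 over 1 ran from 1.15 to 1.52, with 11.7% to 47.0% of genes as far apart. Minocycline B over A ran from 1.33 to 1.81, with 8.56% to 26.0% of genes as far apart. The control libraries also differed in sex, in the summed Müller cell markers (3334 and 2311 CPM) and in the inner retinal markers (1562 and 1226 CPM), and the part of these in the gap was not tested. Of the variance of log2 CPM over libraries, 17.0% lay between groups for Rpe65, 7.01% for Stra6 and 37.7% for Rgr, against 62.6% for Rdh10, 89.1% for Rdh11 and a median of 61.4% over all tested genes.

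The genes outside the list whose pattern was most like that of Rpe65 were, among 1348 ranked genes, Car12 with r = 0.982, Ermn with 0.960, Pon1 with 0.957, 5930403L14Rik with 0.929 and Itgb1bp2 with 0.918. Car12 encodes a membrane carbonic anhydrase and is on the ciliary epithelium list. Ermn encodes a cytoskeletal protein known from oligodendrocytes that is also on the wider RPE list, and Pon1 a paraoxonase known from blood lipoproteins. Of the wider RPE list, 13 genes were ranked and 3 were among the top 100, Slc16a8 at rank 10 with r = 0.850. The top 100 were taken from 1348 genes, and 2 of 12 reactive glia genes and 1 of 6 ciliary epithelium genes were among them too, so nothing particular to the RPE list is read from this count. Car12 had 5.19 and 14.1 CPM in control, 5.32 and 8.13 in light, and 4.398 and 7.05 with minocycline. Like Rpe65, it was highest in control 2 and lowest in minocycline A.

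Melanin and pigment cell genes did not follow the same order. Their 16 genes summed to 69.2 and 142.7 CPM in control, 92.5 and 114.8 in light, and 390.0 and 1553 with minocycline. In each group the library with more Rpe65 also had more of these genes, but both minocycline libraries lay above all others. Tyrp1, a melanin enzyme, was at 3.27 and 14.9 CPM in control, 6.43 and 8.93 in light, and 67.7 and 310.4 with minocycline. Pmel, the melanosome fibril protein, was at 0.924 and 13.0 CPM in control, 2.57 and 6.08 in light, and 72.1 and 340.5 with minocycline. Of the 16 genes, 0 passed by edgeR's quasi-likelihood test in minocycline against light (13 at an unadjusted p under 0.05, 9 by DESeq2), beside 0.0542%, 21.1% and 8.12% of all tested genes. Their median log2 fold change was 2.88.

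Corneal epithelium, smooth muscle and stromal markers were highest in the same minocycline libraries. The 16 corneal epithelium genes summed to 5.85 to 22.8 CPM in the control and light libraries and to 218.9 and 312.2 in minocycline A and B. By edgeR's quasi-likelihood test, 2 of 13 tested passed as higher against light and 5 of 13 against control. Of all tested genes, 0.0542% and 0.162% passed in these comparisons. The 10 smooth muscle genes summed to 52.2 to 99.5 CPM and then 143.1 and 458.8, and the 13 stromal genes to 21.2 to 31.3 and then 56.6 and 184.4. In control most of the smooth muscle sum was Synpo2, at 60.9 and 69.6 CPM, with 30.1 and 24.85 in light. Synpo2 was at 55.7 and 71.7 with minocycline. Acta2 was at 1.21 to 5.57 CPM in the control and light libraries and at 23.6 and 135.9 with minocycline. The summed level of the 19 ciliary epithelium genes was 2285 to 2923 CPM and then 2723 and 3279. Averaged over these genes as a log2 ratio to the mean of all libraries, which gives each gene equal weight, it was -0.45 to -0.15 and then 0.29 and 0.93, so by this measure both minocycline libraries were highest. The sum of the 14 choroid endothelium genes was highest in light 2, with 382.0 CPM against 193.7 to 302.9 in the other libraries, and their mean log2 ratio was highest in minocycline A, with 0.29 against 0.24 in light 2 and 0.21 in minocycline B. Rpe65, at 18.7 and 31.9 CPM in these libraries, stayed within its range in the light and control libraries in minocycline B and was just under it in minocycline A. What part these tissues have in the minocycline values of the 9 genes was not tested.

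**Figure D4:**
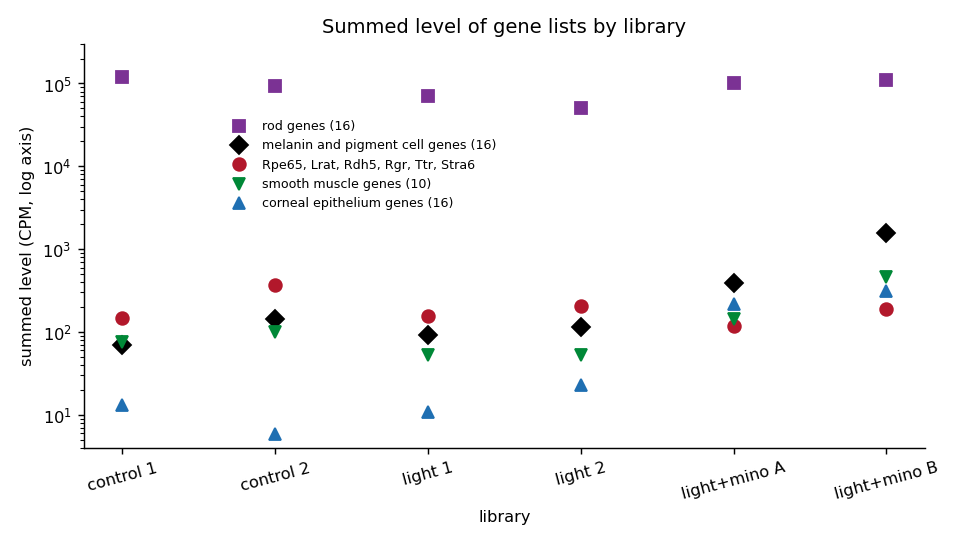
Summed level in CPM (log axis) of 5 sets of genes in each of the 6 libraries; each point is the sum over the genes of a set. The 6 genes led by Rpe65 stay between 118.3 and 367, while melanin and pigment cell genes reach 390.0 and 1553 in the minocycline libraries.

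Other genes of retinoid handling were read from a list of 33, of which 31 were in the table and 24 were tested in light against control. By edgeR's quasi-likelihood test 4 fell and 1 rose, beside 11.3% of all tested genes in either direction. The all-trans retinol dehydrogenases of photoreceptors fell, Rdh12 from 876.8 and 702.8 to 533.2 and 351.8 CPM (log2 fold change -0.83, edgeR adjusted p = 0.0424) and Rdh8 from 172.6 and 219.7 to 140.7 and 98.1 CPM (-0.71, edgeR adjusted p = 0.0478). Scarb1, a lipoprotein receptor, fell by 0.65 on the log2 scale, and Dgat1, an acyltransferase named after its value was seen, fell by 0.58. Cyp26a1, which breaks down retinoic acid, rose from 5.26 and 3.66 to 10.3 and 9.98 CPM, a log2 fold change of 1.19. The median of the 24 was 0.02, beside 0.00 over all tested genes.

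In minocycline against light, 0 of 25 tested genes of this list passed by edgeR's quasi-likelihood test, with 10 at an unadjusted p under 0.05 (21.1% of all tested genes), while DESeq2 called 4 higher and 2 lower (8.12% of all tested genes in either direction). The photoreceptor carrier Rbp3 and the retinal transporter Abca4 had log2 fold changes of 0.66 and 0.63. In minocycline against control 0 of 24 passed by edgeR, by DESeq2 or at an unadjusted p under 0.05, and Rbp3 and Abca4 had 0.05 and -0.12. Abca4 stood at 2873 and 2827 CPM in control, 1865 and 1447 in light, and 2186 and 2886 with minocycline, so its light libraries were lowest, as for Rdh11.

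Of a wider list of 50 genes known from the RPE, which shares 4 genes with the retinoid list, 43 were tested in light against control. By edgeR's quasi-likelihood test 6 rose and 0 fell, near the 11.3% of all tested genes that passed. At an unadjusted p under 0.05, 14 were higher and 4 lower, where 28.9% of all tested genes had such a p, and DESeq2 called 10 higher and 1 lower, against 13.3% of all tested genes. These 6 are used by other retinal cells too. Ctsd, the lysosomal protease cathepsin D of many cells, rose from 310.3 and 254.8 to 1466 and 4696 CPM, a log2 fold change of 3.45. Mertk, a receptor for engulfing outer segments and dead cells, rose by 1.52, Trpm1, the channel of ON bipolar cells, by 1.12 and Sulf1, an enzyme of the cell matrix, by 0.96.

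Microglia and macrophage markers moved in the same direction, from 56.7 and 64.9 CPM summed over 15 genes in control to 445.3 and 1384 in light, with 120.2 and 57.1 under minocycline. Their part in the values of Ctsd and Mertk was not tested. With minocycline, 0 of 45 genes of the RPE list passed against light (20 at an unadjusted p under 0.05, and 3 higher and 7 lower by DESeq2, beside the same 21.1% and 8.12%) and 0 of 45 against control (8, and 2 higher by DESeq2, beside 7.01% and 1.18%), all in edgeR's quasi-likelihood test unless named. Ctsd had -3.06 against light, and Rlbp1, the retinal binding protein of Müller cells and RPE, had -0.23. Against control, Ctsd and Rlbp1 had log2 fold changes of 0.41 and 0.28.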

How the data were processed

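Retinal RNA of 6 libraries was prepared as stranded mRNA libraries and read in single reads of 50 cycles. The authors aligned reads to mm10 (GRCm38) using STAR within RNA Express and deposited gene-level counts. The deposited counts are whole numbers without scaling, although the study calls them normalized; annotation, tool versions and strand use in counting are not given in the sources used here. Value columns left out numbered 0.

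Each pair of groups was fitted in R 4.3.3 by the robust quasi-likelihood F test of edgeR 4.0.16, after filterByExpr and TMM, with Benjamini-Hochberg adjustment over all tested genes. Passing means an adjusted p under 0.05; the study's log2 cutoff of 2 is given beside it. Log2 CPM used a prior count of 2. The 95% intervals used the fit's degrees of freedom. The fit was tested on simulated data. Genes were matched by symbol to the GRCm38 annotation (GENCODE), and promoters to the RefSeq table.

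The 9 genes, the wider lists, the tests and the alternatives were chosen with earlier results of these data known. Named are the 9 genes, and the 5 other genes with the highest r to Rpe65 among those with a mean count of at least 50 and an SD of log2 CPM of at least 0.5. Genes of the wider lists were drawn from up to 4 passing genes with the largest change per list and comparison (or the 2 with the highest mean count where none passed). Not all of those are named. Tyrp1, Slc16a8, Kcnj13, Rrh, Dgat1, Mfrp and C1qtnf5 are shown besides. Alternatives were DESeq2 1.42.0 (test, size factors), no robust estimation, total library size, a minimum of 10 counts per library or no filter, a joint fit of the 6 libraries, a replicate block, the fold cutoff, and each library left out.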

Additional observations from a re-analysis of the deposited data

How the results depend on the processing

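Of the 8 genes tested in light against control, the count that fell was 1. It became 0 at total library size, 0 with the fold cutoff and 0 to 0 without any 1 library, where the lone sample of a group is assumed to vary like the other group. With the replicate block it became 2, Rdh11 and Rgr (-0.61, adjusted p = 0.0132 by edgeR's quasi-likelihood test), where 5.97% of all tested genes passed as lower. Control and light libraries share only a number: their same-numbered deviations correlated at -0.01, so the block is given here alone. No paired analysis was possible because of the shared column header in comparisons with minocycline. The count higher in minocycline against light was 0, and 1 with DESeq2, without a filter and in a joint fit of 6 libraries. The count lower in minocycline against control was 0, and 0 to 3 with each library left out. Ttr after light reversed to 0.21 at total library size and to 0.066 with the block, and Stra6 to 0.033 at total library size. Rpe65 in minocycline against light, at 0.0018, reversed to -1.6e-04 with DESeq2, -0.0020 with its size factors, -0.19 at total library size, -0.0086 with at least 10 counts and -0.020 in the joint fit. Total library size moved the median of all genes to 0.24 in light against control and to -0.17 in minocycline against light.

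With each library left out, log2 fold changes after light ran from -1.42 to 0.38 for Rpe65, -1.26 to 0.24 for Lrat, -1.24 to 0.086 for Rdh5, -0.53 to 0.73 for Ttr and -0.67 to 0.45 for Stra6. For Rgr they ran from -1.19 to -0.037 and for Rdh10 from 0.046 to 0.34. In minocycline against light they ran from -0.44 to 0.35 for Rpe65, -0.47 to -0.017 for Lrat, -0.13 to 0.66 for Rdh5, -0.56 to 0.33 for Rgr and -0.45 to 0.19 for Stra6. In minocycline against control they ran from -1.40 to 0.42 for Rpe65, -1.47 to 0.034 for Lrat, -0.91 to 0.43 for Rdh5, -0.20 to 0.0041 for Rdh10, -0.067 to 0.35 for Rdh11, -1.22 to 0.055 for Ttr and -0.75 to 0.38 for Stra6. Apart from the libraries left out or their assumed spread, the cause of these changes was not tested. Counts of these genes were 115 to 1819 a library apart from Best1, whose 0 or 1 count allowed no test.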

Other observations

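Counts relative to Rpe65 in the same library, a description chosen after the values were seen, were steadier for some genes than for others. Lrat, which makes the ester that RPE65 uses, had 0.443 to 0.636 counts per count of Rpe65 over the 6 libraries, Car12 had 0.207 to 0.272 and Rdh5 had 0.436 to 0.612. Ttr had 1.89 and 1.298 in control, 2.28 and 2.48 in light, and 1.67 and 1.35 with minocycline, so the light libraries were highest. Dct, a melanin enzyme, had 0.567 and 0.609 in control, 0.882 and 0.935 in light, and 7.95 and 20.5 with minocycline. Pmel had 0.0473 and 0.191 in control, 0.121 and 0.204 in light, and 3.85 and 10.7 with minocycline.

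Rlbp1, which serves Müller cells as well as the RPE, had 24.0 and 5.08 counts per count of Rpe65 in control, 24.1 and 21.0 in light, and 28.9 and 13.2 with minocycline. Control 2 was the lowest for this ratio, as Rpe65 was high there and Rlbp1 itself was at 345.9 CPM against 469.7 in control 1.

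Lens genes stood apart in 1 light library, with 226.4 CPM summed over 14 genes in light 1 against 2.20 to 25.6 in the other libraries. The 6 genes led by Rpe65 summed to 155 CPM in that library.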
